A study of Rattus with 6 samples.

Results

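The genes described here are 10 genes of the endoplasmic reticulum (ER) folding machinery that are known targets of the unfolded protein response: Hspa5, Hsp90b1, Calr, Canx, Pdia3, Pdia4, Pdia6, Xbp1, Dnajb9 and Sdf2l1. They were taken by gene symbol from a table of read counts that lists 20742 genes, and all 10 were found there and passed the filter on low counts. Expression was measured by RNA sequencing of poly(A) RNA in 6 libraries from H9C2 cells, a cell line derived from embryonic rat heart. The genotype label of 3 libraries is RBM25 overexpression, and that of the other 3 is control plasmid; the labels name no further agent, time, vector or promoter. RBM25 is an RNA-binding protein that acts with the U1 snRNP in splice site choice, and the comparison asks which genes change in level when it is raised. Separate cultures are not stated for the libraries of a group, so the spread behind each p-value may be technical.

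Proteins that enter the secretory pathway fold in the ER with the help of chaperones. BiP, encoded by Hspa5, binds unfolded chains and also holds the stress sensors IRE1, PERK and ATF6 inactive. When unfolded protein accumulates, ATF6 is cleaved to an active transcription factor and IRE1 splices the Xbp1 mRNA, and both factors then raise the transcription of chaperone genes. Cells that secrete much collagen depend on this machinery.

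Libraries held 25543849 to 33130256 counted reads. RBM25 replicate 3 was the least like its group: the chi-square of its counts, divided by the degrees of freedom, was 6.23 to RBM25 replicate 1 and 4.798 to replicate 2, while other replicate pairs were at 3.22 to 3.47. Rbm25 itself, on chromosome 6, had 56.3, 55.9 and 60.1 CPM (counts scaled to library size, with TMM scaling factors) in the RBM25 libraries, against 49.2, 44.5 and 45.7 CPM in the control libraries. The groups did not overlap, and the log2 fold change was 0.30 ± 0.047 (SE, edgeR fit; adjusted p = 0.0011), a call that was lost without control replicate 2 (adjusted p = 0.0842). The 12 muscle markers listed in the counts were mixed. The myoblast genes Cdh15 (209 to 235 CPM over all libraries) and Myod1 (54.6 to 68.4 CPM) were present. Myog (14.6 to 25.6 CPM) and Des (8.28 to 10.9 CPM) were lower. Myf6 and Chrna1 had only 16 and 42 reads in all, and Actc1 stayed at or below 1.50 CPM. Myf5 had no row in the counts used here. Cardiac genes were mixed: the troponin gene Tnnt2 was at 94.1 to 137 CPM and the transcription factor genes Nkx2-5 and Gata4 were at 13.5 to 17.2 and 10.6 to 12.4 CPM, while the myosin gene Myh6 stayed at or below 0.505 CPM and the calcium channel gene Ryr2 had 1 read in all. Fibroblast markers were mixed too: the collagen gene Col1a1 was at 12222 to 13595 CPM, but Pdgfra had 5 reads in all, and Dcn and Lum had no row in the counts used here. Summed muscle markers ranged from 427 to 490.4 CPM in the RBM25 libraries and from 438 to 461 CPM in the control libraries. Summed fibroblast markers ranged from 24945 to 26298 and from 24733 to 27078 CPM in the same order. Endothelial markers summed to at most 0.884 CPM in RBM25 libraries and 0.864 CPM in control libraries, and leukocyte markers to at most 7.39 and 6.95 CPM. Epithelial markers reached at most 29.9 CPM in RBM25 libraries and 28.7 CPM in control libraries, nearly all from Krt8, and plasma cell markers at most 819 and 815 CPM, nearly all from Sdc1. None of the tested markers passed the test.

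Most of the 10 genes were among the abundant mRNAs of these cells. Levels of different genes are compared here per length, as the deposited FPKM (fragments scaled to gene length and library size). Calr, the calcium-binding lectin chaperone calreticulin, was highest at 1181 ± 10.4 FPKM in RBM25 libraries and 1216 ± 4.89 FPKM in control libraries (SD, n = 3 each), and ranked 85 of the 20395 genes in the FPKM table. Hsp90b1 followed at 481 ± 8.61 and 478 ± 13.96 FPKM, then Pdia3 at 469 ± 10.8 and 463 ± 9.11 FPKM, Hspa5 at 373 ± 8.61 and 374 ± 8.02 FPKM, and Pdia6 at 352 ± 6.22 and 355 ± 7.49 FPKM, in RBM25 and control libraries in that order. Pdia4 had 256 ± 3.76 FPKM in RBM25 libraries and 268 ± 4.01 FPKM in control libraries. Canx, Xbp1 and Sdf2l1 were lower, with 121 ± 3.45, 86.6 ± 2.48 and 75.2 ± 3.81 FPKM in RBM25 libraries and 119 ± 4.05, 88.3 ± 1.50 and 75.3 ± 2.51 FPKM in control libraries. Dnajb9, which encodes the BiP co-chaperone ERdj4, was far below the rest at 7.03 ± 0.429 FPKM in RBM25 libraries and 6.53 ± 0.245 FPKM in control libraries and ranked 5827.

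From Calr to Dnajb9 the mean FPKM differed 177-fold. Each gene lay above the next one in this order in all 6 libraries. The ranges over libraries overlapped for 2 neighbours in the order, Hsp90b1 (464 to 492 FPKM) with Pdia3 (454 to 481 FPKM) and Hspa5 (363 to 383 FPKM) with Pdia6 (345 to 363 FPKM), and not for the other neighbours. The soluble lectin calreticulin and its membrane-bound counterpart calnexin (Canx) were unequal: Calr had 9.75 ± 0.220 times the FPKM of Canx in RBM25 libraries and 10.2 ± 0.389 times in control libraries (SD, n = 3 each).

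**Figure D1:**
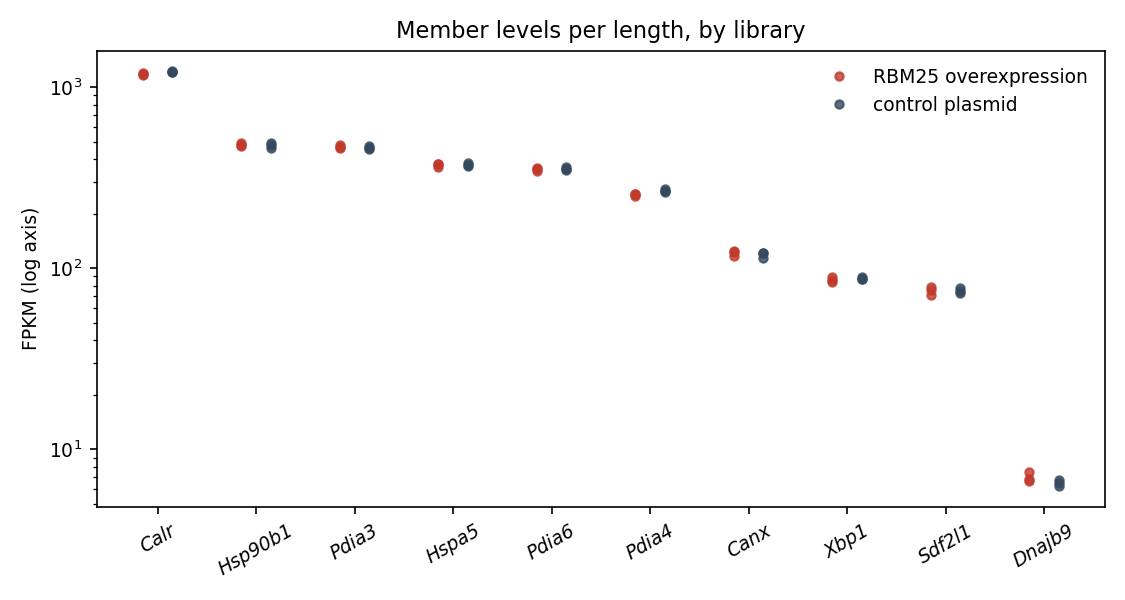
Deposited FPKM of the 10 genes on a log axis, one point per library, with RBM25 overexpression in red on the left of each pair and control plasmid in blue. The genes are ordered by mean level from Calr (1199 FPKM over all libraries) to Dnajb9 (6.78 FPKM), and the points of each gene lie close together on this scale.

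None of the 10 genes passed the test for a difference between RBM25 overexpression and control plasmid (edgeR quasi-likelihood F-test with Benjamini-Hochberg adjustment over 12882 genes). The smallest adjusted p was 0.336, for Pdia4. Over all genes tested, 0.404% passed at an adjusted p under 0.05, or 52 genes, so 0 of 10 is close to that background. With edgeR, 1 member had an unadjusted p under 0.05, against 11.2% of all genes. DESeq2 also called 0 members, against 56 of all 12882 genes. Limma-trend on FPKM called 0 members too, but only 2 (FPKM + 1) or 3 (FPKM + 0.1) of 11196 genes. It did not call Rbm25 either, so its result for the members says little. Log2 fold changes ran from -0.068 to 0.11, with 4 positive and 6 negative; 2 of the negative ones, Hspa5 and Sdf2l1, became positive without TMM scaling. The median was -0.0039, against -0.0021 over all genes tested. In bulk RNA, fewer cells that express a gene and less RNA per cell cannot be told apart.

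The intervals of these fold changes were narrow. For the 9 genes other than Dnajb9, no 95% interval reached above a change of 6.20% or below one of -8.37%. Each interval refers to 1 gene and is not adjusted for the number of genes. The median absolute log2 fold change of the members was 0.021, against 0.060 over all tested genes. The median was 0.039 over the 5248 tested genes whose mean log2 CPM was 5 or more. Neither set was matched to the members in abundance, and counting noise is smaller for abundant genes. The values therefore do not show that the members were steadier than genes of like abundance. The smallest absolute log2 fold change among the 52 called genes was 0.13, above the 0.11 of Dnajb9, the largest among the members. Genes pass by the size of their fold change relative to its SE, so this gap follows in part from the selection. A p-value that misses the threshold does not show that levels are equal, and the intervals give the differences that these libraries could hold.

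**Figure D2:**
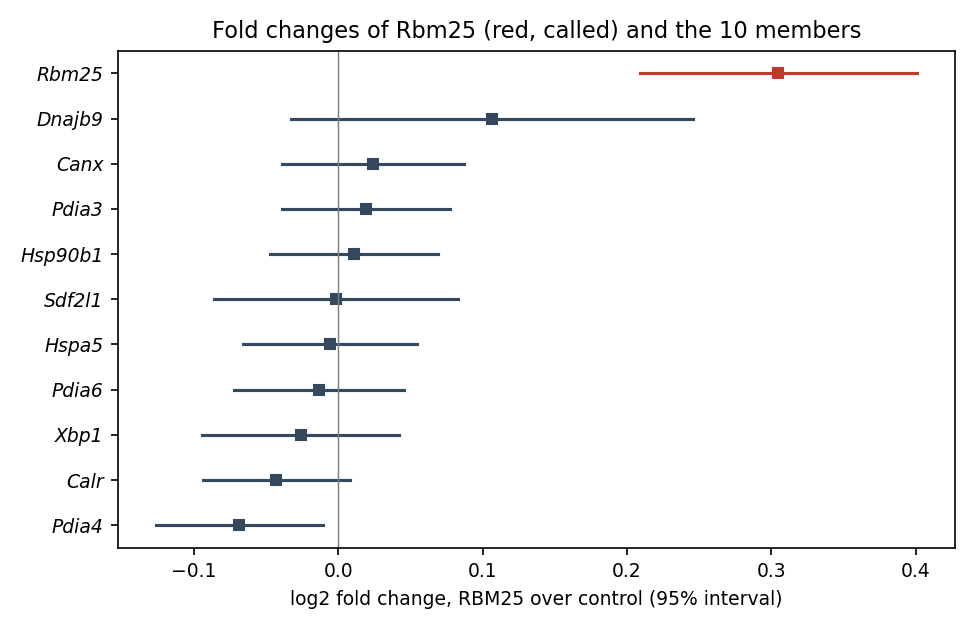
Log2 fold changes, RBM25 over control, with 95% intervals from the edgeR fit, for Rbm25 (red, called) and the 10 members (blue, not called), ordered by size. Every member lies below Rbm25 (0.30), 9 of the intervals cross 0, and that of Pdia4 lies just below 0 before adjustment for multiple tests.

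The BiP system came first by role. Hspa5, on chromosome 3, had 1052, 1053 and 999 CPM in the RBM25 libraries, against 1064, 1035 and 1018 CPM in the control libraries. The groups overlapped, with the lowest value in RBM25 replicate 3 and the highest in control replicate 1. The log2 fold change was -0.0059 ± 0.029 (SE, edgeR fit; adjusted p = 0.967), and its 95% interval ran from a change of -4.47% to one of 3.83%.

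Dnajb9, on chromosome 6, encodes a J-protein that stimulates the ATPase of BiP and assists the disposal of misfolded chains. It had 18.8, 21.1 and 19.0 CPM in the RBM25 libraries, against 18.3, 17.6 and 18.9 CPM in the control libraries. RBM25 replicate 2 was the highest, and RBM25 replicate 1 lay just under control replicate 3, so the groups overlapped. Its log2 fold change of 0.11 ± 0.068 (SE, edgeR fit; adjusted p = 0.589) was the largest and least precise of the members, with a 95% interval from -2.27% to 18.6%. Depth limited this gene most: it had 466 to 667 reads per library, for which counting alone gives a coefficient of variation (CV, the SD as a percent of the mean) of 4.22%, close to the measured CV of 6.31% in RBM25 libraries and 3.64% in control libraries.

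Sdf2l1, on chromosome 11, encodes a partner of ER J-proteins in the BiP cycle. It had 91.1, 87.5 and 81.2 CPM in the RBM25 libraries, against 84.2, 90.0 and 86.1 CPM in the control libraries. Both the highest and the lowest library were in the RBM25 group. The log2 fold change was -0.0018 ± 0.041 (SE, edgeR fit; adjusted p = 0.993), with a 95% interval from -5.81% to 5.89%.

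Hsp90b1, on chromosome 7, encodes GRP94, the ER form of HSP90, which takes over certain clients after BiP. It had 1452, 1495 and 1435 CPM in the RBM25 libraries, against 1492, 1409.7 and 1447 CPM in the control libraries. The groups overlapped almost fully, with the lowest value in control replicate 2. The log2 fold change was 0.011 ± 0.028 (SE, edgeR fit; adjusted p = 0.925), with a 95% interval from -3.21% to 4.90%.

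The lectin chaperones bind the trimmed sugar of new glycoproteins and hand them to the oxidoreductase ERp57, encoded by Pdia3. Calr, on chromosome 19, had 2375, 2411 and 2367 CPM in the RBM25 libraries, against 2446, 2469 and 2455 CPM in the control libraries. Every RBM25 library lay below every control library, and the replicates were tight, with a CV of 0.988% in RBM25 libraries and 0.477% in control libraries. The difference was nevertheless small and did not pass: the log2 fold change was -0.043 ± 0.025 (SE, edgeR fit; adjusted p = 0.545), or -2.94% with a 95% interval from -6.31% to 0.552%. The edgeR fit draws the spread of each gene toward that of genes of like abundance, so it does not rest on these 6 values alone.

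Canx, on chromosome 10, had 653, 678 and 681 CPM in the RBM25 libraries, against 676, 635 and 668 CPM in the control libraries. Control replicate 2 was the lowest and the groups overlapped. Its log2 fold change was 0.024 ± 0.031 (SE, edgeR fit; adjusted p = 0.823), with a 95% interval from -2.67% to 6.20%.

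Pdia3, on chromosome 3, had 988, 1031 and 991 CPM in the RBM25 libraries, against 1011, 973 and 987 CPM in the control libraries. RBM25 replicate 2 was the highest and control replicate 2 the lowest, with the rest intermingled. The log2 fold change was 0.019 ± 0.028 (SE, edgeR fit; adjusted p = 0.854), with a 95% interval from -2.69% to 5.53%. In the RefSeq gene table of GRCr8, a later assembly than that of the files, 3 of the members overlap another gene: Canx and Dnajb9 each a long non-coding RNA gene, and Pdia3 the protein-coding gene Catsper2 and small RNA genes. The libraries are strand-specific per the labels, but no source used here gives the strand setting of the counting, so these 3 counts are uncertain to that extent.

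The other members of the protein disulfide isomerase family, which form and rearrange disulfide bonds, were Pdia4 (ERp72) and Pdia6 (P5). Pdia4, on chromosome 4, had 678, 693 and 687 CPM in the RBM25 libraries, against 710.3, 718 and 729.8 CPM in the control libraries. The groups did not overlap, and the lowest control library was above the highest RBM25 library. The log2 fold change was -0.068 ± 0.028 (SE), a change of -4.64% with a 95% interval from -8.37% to -0.749%; the unadjusted p was 0.0217 and the edgeR adjusted p was 0.336, so it did not pass. Pdia4 and Calr were the 2 members whose groups did not overlap with RBM25 lower, against 7.94% of all tested genes, and 0 members had no overlap with RBM25 higher, against 8.31%.

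Pdia6, on chromosome 6, had 646, 664 and 658 CPM in the RBM25 libraries, against 659, 651 and 676 CPM in the control libraries. The groups overlapped, and the highest value was in control replicate 3. Its log2 fold change was -0.013 ± 0.029 (SE, edgeR fit; adjusted p = 0.905), with a 95% interval from -4.89% to 3.21%.

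Xbp1, on chromosome 14, is the only member that encodes a transcription factor. It had 179, 172 and 167 CPM in the RBM25 libraries, against 179, 174 and 174 CPM in the control libraries. RBM25 replicate 3 was the lowest, and RBM25 replicate 1 was level with the highest control. The log2 fold change was -0.026 ± 0.033 (SE, edgeR fit; adjusted p = 0.821), with a 95% interval from -6.36% to 2.98%. Gene counts sum all forms of the mRNA, so they do not show how much of Xbp1 was spliced by IRE1.

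**Figure D3:**
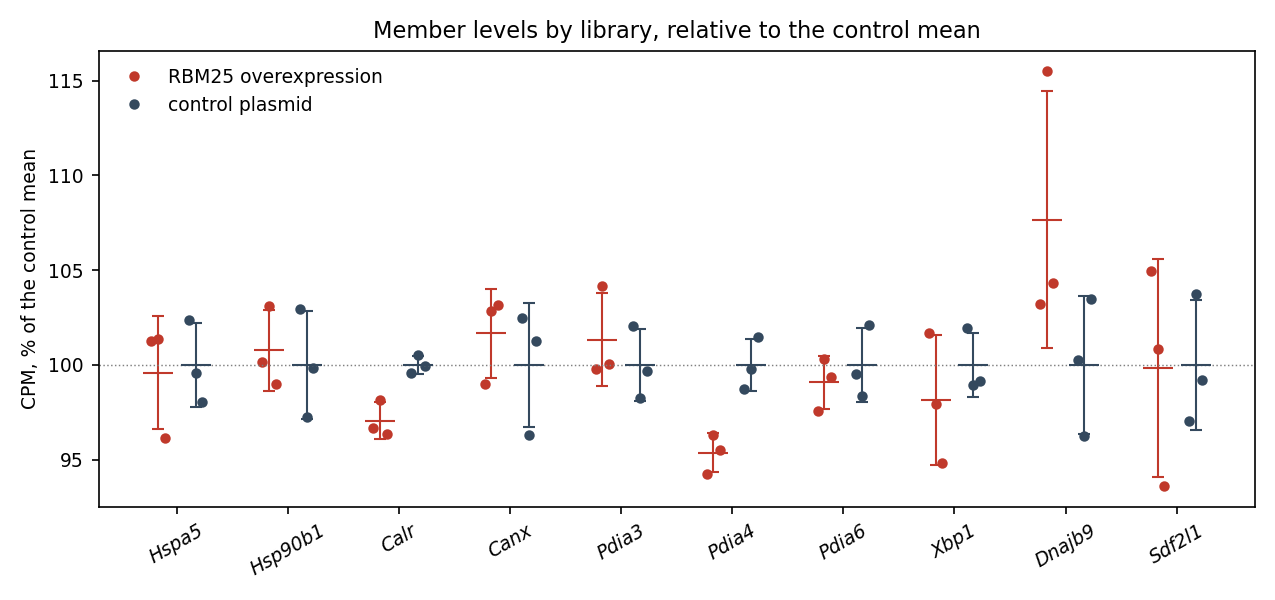
CPM of each member in each library as a percent of its control mean, with RBM25 overexpression in red on the left of each pair and control plasmid in blue; horizontal bars are means and error bars are SD over 3 libraries. The groups overlap for 8 of the 10 genes, and all RBM25 points of Calr and Pdia4 lie below their control points.

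Together the 10 genes took 0.810%, 0.830% and 0.817% of counted reads in RBM25 replicates 1, 2 and 3, against 0.832%, 0.813% and 0.825% in control replicates 1, 2 and 3. The groups overlapped, and the mean share was 0.819 ± 0.0103% with RBM25 overexpression and 0.823 ± 0.00937% with control plasmid (SD, n = 3 each). The CV of a member within a group lay between 0.477% and 6.31%. Hspa5, Calr, Xbp1 and Sdf2l1 each had their lowest CPM of all 6 libraries in RBM25 replicate 3. For Calr the margin was small, at 2367 CPM against 2375 CPM in RBM25 replicate 1. Without RBM25 replicate 3 the log2 fold changes of Hspa5, Calr, Xbp1 and Sdf2l1 were 0.019, -0.038, -0.0021 and 0.041 in that order. Those of Hspa5 and Sdf2l1 turned positive, and 0 members were called, against 352 of 13098 genes. What sets that library apart was not tested.

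Ratios between genes whose products work together do not depend on library scaling. A total of 6 ratios of FPKM were formed, with the pairs chosen after the values were seen, so they are given with no test. Sdf2l1 over Hspa5 was 0.202 ± 0.0065 in RBM25 libraries and 0.201 ± 0.0097 in control libraries (SD, n = 3 each), and Hsp90b1 over Hspa5 was 1.29 ± 0.026 and 1.28 ± 0.027. Dnajb9 over Hspa5 was 0.0189 ± 0.0010 in RBM25 libraries and 0.0175 ± 0.00083 in control libraries, with overlap, as had Calr over Canx. The ratio of Pdia4 to Pdia6 was 0.730, 0.726 and 0.727 in RBM25 libraries, against 0.750, 0.767 and 0.751 in control libraries. That of Pdia3 to Calr was 0.393, 0.404 and 0.395 in RBM25 libraries, against 0.390, 0.372 and 0.379 in control libraries. Only these last 2 ratios of the 6 had no overlap between the groups. They contain Pdia4 and Calr, the members whose own groups did not overlap, so they are not independent of those results. The share of other gene pairs without overlap was not computed.

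The members did not move as one across libraries. Over the 6 libraries, the log2 CPM of Hspa5 had a Pearson r of 0.81 with Xbp1, 0.64 with Hsp90b1, 0.51 with Sdf2l1, 0.50 with Pdia3, 0.23 with Calr, -0.10 with Pdia4, -0.12 with Canx and -0.28 with Pdia6. Among the 5247 other genes at or above that same mean log2 CPM of 5, Xbp1 came 424th and Hsp90b1 948th in likeness to Hspa5; Dnajb9 lay below that level. Non-members with a pattern much like that of Hspa5 were Nap1l4 (r = 0.99), Ccnb1 (0.99), Stip1 (0.98) and Ssrp1 (0.98). These values describe 6 points that share library depth and scaling, and they carry no test.

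The rest of the ER folding and stress pathway was read from 10 lists of 120 genes, of which 119 were in the count table and 116 could be tested. None of the 116 passed over all genes, 47 had a positive and 69 a negative log2 fold change, and the median was -0.0083. With edgeR, 11 genes, or 9.48%, had an unadjusted p under 0.05, against the 11.2% of all genes; DESeq2 called 1 of the 116, against 56 of all 12882 genes, and limma-trend on FPKM called 0, against 2 (FPKM + 1) or 3 (FPKM + 0.1) of 11196. List medians lay between -0.076 and 0.034, and those of 2 lists near 0, prolyl isomerases and oligosaccharyltransferase, changed sign without TMM scaling.

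Upstream of the chaperones, 10 of 12 stress sensors and transcription factors had a negative fold change (median -0.049), and 0 passed. Atf6b, a relative of the ATF6 sensor, had 104, 103 and 98.1 CPM in the RBM25 libraries, against 109, 106 and 107 CPM in the control libraries, without overlap. Its log2 fold change was -0.077 ± 0.035 (SE, edgeR fit; adjusted p = 0.401). Atf6 was at 65.0 ± 0.674 CPM in RBM25 libraries and 66.0 ± 0.747 CPM in control libraries, Eif2ak3 (PERK) at 17.5 ± 0.714 and 18.1 ± 1.86 CPM, and Ern1 (IRE1) at 10.4 ± 0.682 and 11.5 ± 0.557 CPM (SD, n = 3 each; adjusted p = 0.881, 0.834 and 0.543 by edgeR). Ern1 also had no overlap, by a small margin (10.94 CPM in RBM25 replicate 1, 10.99 CPM in control replicate 1). Its log2 fold change of -0.146 ± 0.084 (SE, edgeR fit) was the lowest of this list. Of all tested genes, 7.94% had no overlap with RBM25 lower.

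Among partners of BiP, 6 of 8 ER J-proteins and nucleotide exchange factors had a positive fold change (median 0.034), and 0 passed. Sec63, a J-protein of the translocon, was at 89.9 ± 0.320 CPM in RBM25 libraries and 85.2 ± 1.87 CPM in control libraries (SD, n = 3 each), with a log2 fold change of 0.076 ± 0.035 (SE, edgeR fit; adjusted p = 0.412). Of 16 other disulfide isomerases and oxidative folding factors, 10 were positive (median 0.032). Tmx3, a membrane-bound thioredoxin-family protein, was at 90.3 ± 2.21 and 84.5 ± 3.26 CPM in RBM25 and control libraries (log2 fold change 0.098 ± 0.038 SE, edgeR fit; adjusted p = 0.296). P4hb, the archetypal disulfide isomerase, was at 1769 ± 48.1 CPM in RBM25 libraries and 1813 ± 27.4 CPM in control libraries (SD, n = 3 each; edgeR adjusted p = 0.667).

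Of 6 genes for glycan trimming and glucose tagging, which feed the calnexin and calreticulin cycle, 1 was positive, Uggt2, a folding sensor of that cycle. It was at 40.7 ± 2.11 CPM in RBM25 libraries and 37.4 ± 1.66 CPM in control libraries (SD, n = 3 each; log2 fold change 0.12 ± 0.052 SE, edgeR fit; adjusted p = 0.357). Of 11 tested prolyl isomerases and other folding factors, 5 were positive, and the smallest edgeR adjusted p was 0.647, for Fkbp7. Serpinh1, the collagen chaperone HSP47, was at 5583 ± 25.8 CPM in RBM25 libraries and 5663 ± 83.3 CPM in control libraries (SD, n = 3 each; edgeR adjusted p = 0.795). The 7 oligosaccharyltransferase genes had the narrowest range of the 10 lists, with log2 fold changes from -0.025 for the catalytic subunit gene Stt3b, which had the smallest p (adjusted p = 0.825 by edgeR), to 0.021 for Ostc.

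For degradation of misfolded ER proteins, 6 of 22 tested genes were positive and 16 negative (median -0.010). The one with the smallest p was Nploc4, a cofactor of the extraction ATPase VCP, at 75.4 ± 3.53 CPM in RBM25 libraries and 80.0 ± 0.955 CPM in control libraries (SD, n = 3 each; log2 fold change -0.087 ± 0.039 SE, edgeR fit; adjusted p = 0.392). Of 16 genes of the translocation machinery, 9 were positive. Sec62, a translocon subunit that also takes part in recovery from ER stress, had 173, 179 and 178 CPM in the RBM25 libraries, against 160, 161 and 139 CPM in the control libraries. The groups did not overlap, and the log2 fold change of 0.21 ± 0.045 (SE, edgeR fit; adjusted p = 0.060) just missed the threshold. Control replicate 3 was the lowest, and RBM25 libraries all lay above the highest control. Sec62 was called by DESeq2 (adjusted p = 0.0136) and in the edgeR fit with no filter on low counts (adjusted p = 2.08e-06). Those fits called 56 of 12882 and 205 of 20742 genes in that order. Sec62 was also called with a replicate block. It was not called when any single library was left out, with other scalings, with the stricter filter or by limma-trend.

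The PERK and ATF4 branch, which is separate from the ATF6 and XBP1 branches, had 7 of 7 negative fold changes (median -0.076), and 0 passed. Chac1, an ATF4 target that degrades glutathione, had 41.6, 46.9 and 50.01 CPM in the RBM25 libraries, against 49.4, 50.2 and 51.5 CPM in the control libraries (log2 fold change -0.13 ± 0.054 SE, edgeR fit; adjusted p = 0.360). Without RBM25 replicate 3, the ATF4 targets Asns, Chac1 and Trib3 passed as lower (adjusted p = 3.44e-04, 0.0211 and 0.00202 by edgeR in that order). The ER gene Creld2, of the disulfide isomerase list, passed as higher (adjusted p = 0.0124 by edgeR). In that fit 352 of all 13098 genes passed, so a call was less rare than with all libraries. Outside the ER, 5 of 11 tested cytosolic and mitochondrial chaperones were positive. Hsp90ab1, a cytosolic HSP90, was at 2382 ± 23.3 CPM in RBM25 libraries and 2531 ± 50.5 CPM in control libraries (SD, n = 3 each; log2 fold change -0.087 ± 0.026 SE, edgeR fit; adjusted p = 0.133). Hsp90aa1, another cytosolic HSP90, did not pass with all libraries (log2 fold change 0.11, adjusted p = 0.514 by edgeR). It passed when control replicate 1 was left out (0.19, adjusted p = 0.00981 by edgeR) and with no filter on low counts (adjusted p = 0.0416 by edgeR). Those fits called 53 of 13142 and 205 of 20742 genes in that order.

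**Figure D4:**
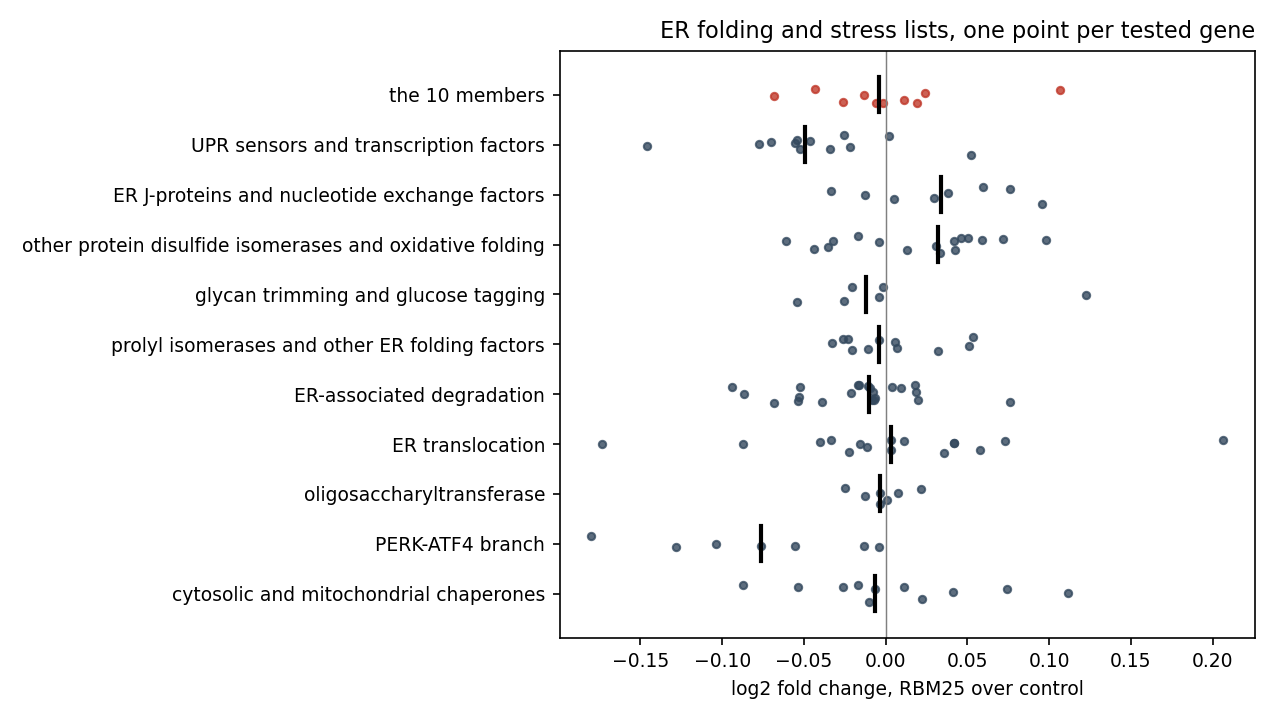
Log2 fold changes, RBM25 over control, of the 10 members (red) and of 116 tested genes in 10 lists of ER folding, ER stress and other chaperone genes (blue), one point per gene, with a black bar at each list's median. The members are centred near 0 (median -0.0039), and the point farthest right is Sec62 (0.21).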

How the data were processed

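The authors deposited unnormalized read counts for each gene. They also deposited FPKM, which the file holds with 2 decimals. Per the submitters' processing notes, HISAT2, DESeq2 and the build mRatBN7.2 were used. No source used here gives the counting program, the annotation or the gene lengths. The test was that of edgeR 4.0.16 (R 4.3.3) on the counts: filterByExpr (minimum count 10), TMM factors (0.996 to 1.01), a quasi-likelihood fit (robust) of all 6 libraries on group, and Benjamini-Hochberg adjustment over 12882 genes, called at an adjusted p under 0.05. SE is the log2 fold change divided by the square root of F; 95% intervals use the t distribution of the fit. The fit was also tested on simulated counts, drawn independently for each library from the means, depths and dispersions of these data. That test held no batch and no deviant library, so it does not cover such effects. Replicates of a group differed by more than sampling noise (chi-square per degree of freedom 3.22 to 6.23).

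The members and the gene lists were chosen with earlier results of these data known. Named genes are the members, Rbm25, in each list the called genes or, failing those, the one with the smallest p, and the 5 genes most like Hspa5, of which 1 is not reported here; Atf6, Eif2ak3, Ern1, P4hb, Serpinh1, Ostc, Asns, Trib3, Creld2, Hsp90aa1 and the cell type markers named were added after their values were seen. Alternatives were DESeq2 1.42.0, limma 3.58.1 on log2(FPKM + 1) or log2(FPKM + 0.1), other scalings and filters, a replicate block, and each library left out. Hspa1a was not analysed here. Intervals cover neither batch nor culture effects.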

Additional observations from a re-analysis of the deposited data

How the results depend on the processing

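Under all 15 alternatives 0 members were called, and the smallest adjusted p of a member was 0.11 (Pdia4, replicate block). Of 150 member values, 138 kept their direction and 12 changed sign. With library totals and no scaling factor, the log2 fold change of Hspa5 was 0.00071 and that of Sdf2l1 0.0045; Sdf2l1 was also positive with no filter on low counts (0.00084) and with at least 1 CPM in all libraries (0.00058). Leaving out 1 library gave ranges of -0.018 to 0.019 for Hspa5, -0.0075 to 0.034 for Hsp90b1, -0.0015 to 0.045 for Canx, -0.024 to 0.0040 for Pdia6 and -0.038 to 0.041 for Sdf2l1. Calr, Pdia3, Pdia4, Xbp1 and Dnajb9 kept their sign in every alternative. The members' median was -0.012 to 0.016 without 1 library, and its SD between replicates was 0.022. Fits without 1 library share most libraries with the main fit, so a small shift does not show that the median is steady.

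The count of all called genes was less steady. It was 5 without control replicate 2, 21 without control replicate 3 and 352 without RBM25 replicate 3, a range of 5 to 352; it was 205 with low counts unfiltered. By limma-trend it was 2 (FPKM + 1), 3 (FPKM + 0.1) and 6 (FPKM + 1, no filter). Pathway genes called were 1 with DESeq2, 2 with no filter on low counts and 0 to 4 without 1 library (4 without RBM25 replicate 3, 1 without control replicate 1). The count of all called genes was 56 with DESeq2 and 53 without control replicate 1. The Rbm25 log2 fold change was 0.27 to 0.35 without 1 library, and the call was lost without control replicate 2 and with limma-trend (0.28 with FPKM + 1, 0.30 with FPKM + 0.1, 0.28 with no filter); the cause was not tested. Same-numbered libraries did not deviate together (r = 0.054, -0.068 and -0.0059 for replicates 1, 2 and 3), and not every library correlated best with its own number. These weak values give no sign of pairing by number, but so few libraries cannot settle it. Whether same-numbered libraries were prepared together is not stated. With the replicate block 436 of 12882 genes were called, among them 5 of the 116 tested pathway genes. These were Sec62 (adjusted p = 3.29e-09), Hsp90ab1 (0.00174), Hsp90aa1 (0.00329), Asns (0.0181) and Trib3 (0.0196), by edgeR. Their p-values rest on a pairing that the libraries did not show. Depth was lowest for Dnajb9, with 466 to 667 reads per library.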

Other observations

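RBM25 replicate 3 differed from RBM25 replicates 1 and 2 in both directions among ER stress genes, a pattern noticed after the values were seen and not tested. Some genes were lower there. Creld2, a secreted ER stress protein, had 107 and 106 CPM in RBM25 replicates 1 and 2 and 89.8 CPM in replicate 3, against 100.4, 94.98 and 93.8 CPM in the control libraries. Hspa5, Xbp1 and Sdf2l1 were likewise lowest in that library. Calr was lowest there by a small margin only, at 2367 CPM against 2375 CPM in RBM25 replicate 1. Others were higher there. Asns, which makes asparagine, had 222 and 228 CPM in RBM25 replicates 1 and 2 and 263 CPM in replicate 3, against 245, 257 and 262 CPM in the control libraries. Trib3, a pseudokinase, had 29.9, 33.8 and 39.2 CPM in RBM25 replicates 1, 2 and 3, against 35.6, 41.0 and 39.5 CPM in the control libraries. The cause was not tested.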
